A study of Rattus norvegicus with 2 samples.

Results

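Cytosolic ribosomal proteins are the protein components of the 40S and 60S subunits of the ribosome that translates nuclear-encoded messenger RNA. Their genes were taken from the array by name: non-control probes whose gene name is Rpl or Rps followed by a number, with the usual suffixes, or is Rplp0, Rplp1, Rplp2 or Rpsa, and the S6 kinase genes were left out. The rule gave 86 genes, measured by 155 probes at 173 spots, of 15563 genes and 24530 probes counted on the array. Of these, 77 are core members (31 of the 40S subunit, 43 of the 60S subunit and 3 of the P stalk). The other 9 are paralogues or like-named genes, which are given apart. All 155 probes were well above background on both arrays, so no member was lost to the filter on dim probes.

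The samples came from the nucleus tractus solitarius (NTS), the brainstem nucleus that receives visceral and baroreceptor input, of Wistar Kyoto rats, a normotensive inbred strain, aged 9 weeks. RNA of 5 males and RNA of 5 females was pooled by sex, each rat giving 100 ng, and 1 single-colour array was hybridised with each pool, both on the same slide. Each difference is therefore between 2 arrays, without any replicate check and without a test, and the spread between rats cannot be seen. In RNA of bulk tissue, fewer cells of a type and less RNA per cell cannot be told apart.

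The small subunit reads the messenger RNA, and the large subunit joins the amino acids and holds the tunnel through which the new chain leaves. A stalk of acidic P proteins on the large subunit recruits the elongation factors. Because every ribosome holds about equal amounts of the core proteins, their messenger RNAs are known as a coordinately expressed group, and many of them begin with a C followed by a run of pyrimidines, the 5′ terminal oligopyrimidine (TOP) tract through which the mTOR pathway controls their translation. Neurons translate messenger RNA both in the cell body and locally in their processes.

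The start sites show the feature that many members share. The RefSeq promoter table of the GRCr8 assembly held an entry for 68 of the 86 members, 62 of them core genes. The windows of 30 bases given here, 15 before and 15 from the annotated start, were picked from members that carry a tract. Some of the tracts are long, and some belong to members described below. Members without a tract, some of them also described below, are not shown. Capitals mark the tract that starts at the annotated first base.
Rpl10: caggcgtgggagcgtCTCTTTTCCTCTggc
Rpl31: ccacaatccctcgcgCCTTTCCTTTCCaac
Rpl37a: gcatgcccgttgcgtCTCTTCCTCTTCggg
Rpl28: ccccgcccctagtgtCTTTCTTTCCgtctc
Rpl14: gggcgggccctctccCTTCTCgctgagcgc
Rps7: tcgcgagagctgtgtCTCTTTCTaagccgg
Rps15: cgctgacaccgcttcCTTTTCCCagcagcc
Rps3a: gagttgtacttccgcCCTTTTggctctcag
Rplp0: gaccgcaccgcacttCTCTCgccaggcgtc
A C at the first base with at least 4 pyrimidines after it, read on the sense strand, was present in 24 of 62 core members (38.7%) and in 881 of all 33469 promoters of the table (2.63%). A C at the first base alone was present in 54.8% of core members and 24.1% of all promoters. An annotated start can lie a few bases from the start used in the NTS, so a tract not found at it is only absent from that position. In the whole window of 250 bases before to 50 bases after the start, searched on both strands, the ETS-type motif CCGGAAG was present in 20 core members (32.3%) against 8.75% of all promoters. The YY1-type motif AAGATGGC was present in 5 (8.06%) against 3.17%, and TATAAA in 6 (9.68%) against 14.2%. These shares describe the annotation, and no test of them was made. The median female minus male difference (log2) was 0.0019 in the 24 members with the tract and -0.014 in the 38 without it. The gap is small beside the SDs, 0.071 with the tract and 0.052 without it.

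Levels are the log2 processed signal of a probe minus the 75th percentile of its array, which was 3441 for the male pool and 3380 for the female pool, and a difference is the female minus the male level. Each gene is given by the median over its probes. The brightness of different probes depends on their sequences and is not an order of abundance. Core genes had mean levels over both arrays of -1.48 to 6.99, with a median of 4.64. The error available is the spread of the difference over the repeated spots of single probes elsewhere on the array, an SD of 0.076 among probes over 4-fold brighter than the 75th percentile, 0.064 just above it, 0.078 within 16-fold below it and 0.31 among the dimmest. It leaves out differences between rats, pools and labelling reactions.

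The core ribosomal protein messenger RNAs were nearly equal in the male and female pools. The median difference of the 77 genes was -0.010, beside -0.014 over all counted genes, and the range was -0.19 to 0.12. None of the 77 was 2-fold or more apart, where 0.533% of all counted genes were (0.109% toward the female pool and 0.424% toward the male pool), so 0 of 77 is near that share. A difference of 1.2-fold or more was also found in 0 of the 77 (1 with the brightest probe of each gene or without 4 bands of array rows described below), where 13.5% of all counted genes had one (5.74% toward the female pool and 7.74% toward the male pool). The difference was within 0.1 in 66 of 77 core genes (85.7%) and in 52.7% of all counted genes. By sign alone, 33 core genes had the higher level in the female pool and 44 had it in males, a female share of 42.9% beside 45.7% of all counted genes. For 60 of the 77 genes the difference was smaller than 0.076, the spot SD of the brightest class, which was used for every gene.

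**Figure D1:**
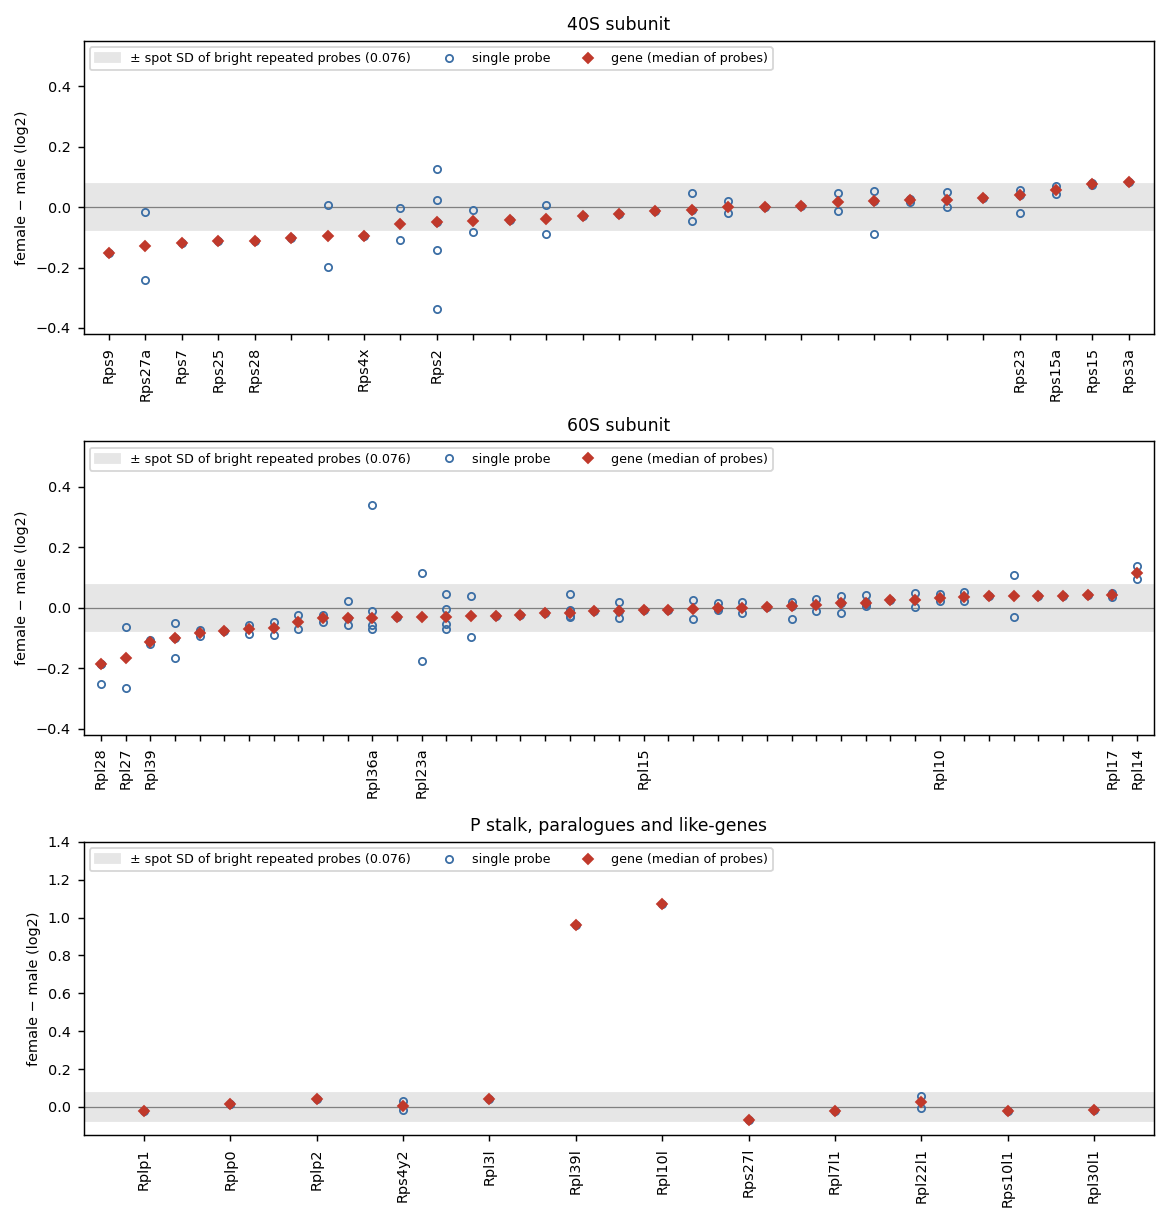
Female minus male difference (log2) of each member, in 3 panels for the 40S subunit, the 60S subunit, and the P stalk with the paralogues and like-genes. The members the results turn on are labelled, and a few that are not reported here are left out. Red diamonds are genes (medians of their probes), open circles are single probes, and the grey band is plus or minus the spot SD of bright repeated probes (0.076); core genes lie between -0.19 and 0.12, whereas Rpl10l and Rpl39l lie near 1 in the lowest panel, whose axis is wider.

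The dimmest probes are measured less precisely than bright ones, so genes in a like window of brightness give a nearer comparison. The 1070 other genes with levels between 2.14 and 5.89 had a median of -0.0022 and an SD of 0.13. The SD was 0.060 among all 77 core genes, some of which lie outside this window. The match is loose, since the median level was 2.99 in the other genes and 4.64 in the core genes. Of these other genes, 0 were 2-fold or more apart, as among the core genes, 76.4% lay within 0.1, and 40 were 1.2-fold or more apart, 13 toward the female pool and 27 toward the male pool. Core genes more often have several probes, which narrows a median, so single probes with a single spot were also set side by side. In the same window the 122 core probes had an SD of 0.083 and 84.4% within 0.1, and the 2202 other probes had an SD of 0.14 and 73.6% within 0.1. The median level was 4.6 in these core probes and 3.3 in the other probes. The interquartile ranges of these probes were closer, 0.092 and 0.11, so much of the gap lay in the tails. The 70 measured proteins of the mitochondrial ribosome, of 71 listed, had a median of 0.0012 and an SD of 0.099, with 37 higher in females and 33 higher in males. One of them in each direction was 1.2-fold or more apart, Mrpl38 at 0.32 and Mrpl43 at -0.34, and their probes were dimmer, with a median level of 0.57.

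**Figure D2:**
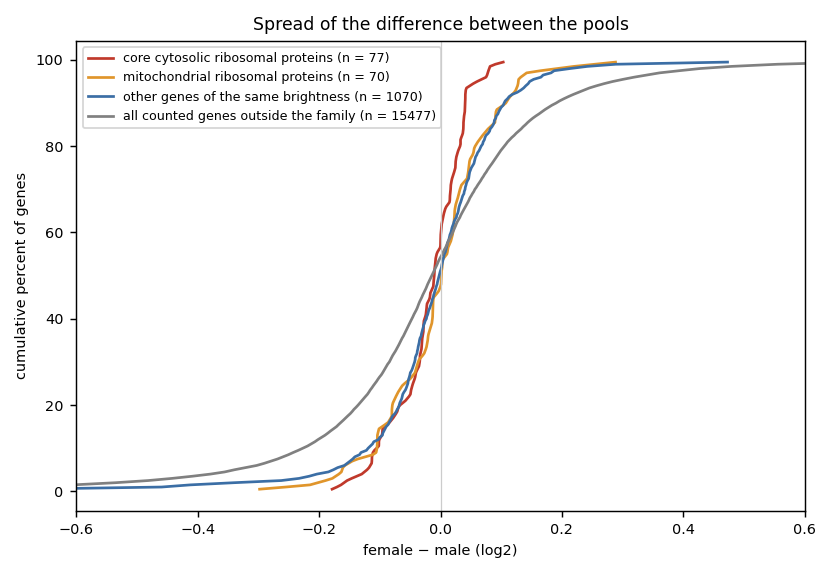
Cumulative percent of genes (vertical axis) against the female minus male difference (log2, horizontal axis) for core members, mitochondrial ribosomal proteins, other genes of the same brightness and all counted genes outside the family. The core curve is the steepest of the 4, with 85.7% of its genes within 0.1 of 0, against 76.4% of the genes in the same brightness window. The median level of the latter was lower, 2.99 against 4.64.

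The 40S genes had a median difference of -0.012, with an SD of 0.066, and 14 of 31 were higher in the female pool. The largest 40S difference was in Rps9, a protein of the small subunit body that bears on the accuracy of decoding. Its probe, at rn4 chr1:63824690-63824749, read 4.94 in the male pool and 4.79 in the female pool, a difference of -0.15, about 2 spot SDs. Its spot lay in 1 of 4 bands of array rows, of 20, that hold many dim spots brighter on the male array. Rps7 read 4.27 in males and 4.15 in females, a difference of -0.12. Rps25, known for its part in internal initiation on viral messenger RNAs, read 2.05 and 1.93, a difference of -0.11, and Rps28 read 5.21 and 5.10, also -0.11. Rps27a, which is made as a fusion with ubiquitin, had a gene difference of -0.13, but its probes read -0.24 and -0.018. Each of these 5 genes was higher in the male pool, by less than 1.2-fold.

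On the female side of the 40S list the differences were smaller. Rps3a read 4.95 in males and 5.04 in females, a difference of 0.082. Rps15, which lies in the head of the subunit near the decoding site, differed by 0.076, with 2 probes at 0.072 and 0.079. The spot of its probe at 0.072 lay in the 4 bands, as did that of the Rps23 probe at -0.019. Rps15a differed by 0.056, with probes at 0.044 and 0.069, and Rps23, a protein of the decoding centre, by 0.041, with 3 probes between -0.019 and 0.055. Rps3a and Rps15 lay at about 1 spot SD, and Rps15a and Rps23 lay below it.

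The 60S genes had a median of -0.0099 and an SD of 0.057, and 17 of 43 were higher in the female pool. The median of the 60S list minus that of the 40S list was 0.0021. Rpl28, a protein found in eukaryotic large subunits, had the largest male excess of all core genes, -0.19. Its brightest probe, at rn4 chr1:67770003-67770062, read 4.64 in males and 4.46 in females. The probe at chr1:67770629-67770770, whose target spans more of the genome than its 60 bases, read 2.87 and 2.62. A dim probe at chr1:67769118-67769177 read -5.86 and -6.05. The 3 differences were -0.19, -0.25 and -0.19, all of the same sign. However, the spots of the brightest and the dim probe lay in the 4 bands of array rows named above. Those bands hold many dim spots brighter on the male array, which is the direction of these differences. Only the probe at -0.25 lay outside them, and the part of the bands in the other values was not tested. The sequences of the brighter pair, both on the minus strand, are given because they carry the largest difference of the core list, and no capitals are used.
Rpl28 probe at 67770003: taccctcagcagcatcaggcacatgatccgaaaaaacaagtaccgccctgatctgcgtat
Rpl28 probe at 67770629: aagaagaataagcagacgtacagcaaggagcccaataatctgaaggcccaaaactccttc
Rpl27 followed at -0.17, with probes at -0.065 and -0.27, the latter the dimmer, and the spots of both lay in those bands. The largest female excess of all core genes was in Rpl14, at 0.12. Its probes read 4.84 in males and 4.98 in females, and 2.78 and 2.88, differences of 0.14 and 0.094. The spot of the probe at 0.094 lay in those bands too. Rpl17, which lines the exit tunnel, differed by 0.042, with probes at 0.034 and 0.049, the latter with its spot in the bands. The 60S genes with the largest differences in each direction were thus Rpl28 and Rpl14, each with all its probes of the same sign.

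The P stalk genes differed by less than the spot SD. Rplp0, the base of the stalk and a common reference gene for quantitative PCR, read 5.91 in males and 5.93 in females, a difference of 0.017, and its 2 probes, which share 41 bases, read 0.017 each. Rplp1 read 5.25 and 5.23, a difference of -0.024. Rplp2 read 5.59 and 5.63, a difference of 0.041. The median of the 3 was 0.017.

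Core members on the X chromosome are of interest in a comparison of the sexes, because genes that escape X inactivation can differ by dose. Of the 4, 3 were higher in the male pool, as were 41 of the 73 autosomal core genes. The female share was 25% of the 4 and 45.7% of all counted genes. A count among 4 genes does not stand out from that share. The median was -0.065, beside -0.0099 for the 73 autosomal core genes. Rps4x, at rn4 chrX:90252399-90252458, is the member measured best: its probe was spotted 10 times and read 2.76 in males and 2.66 in females, a difference of -0.096 with an SD of 0.018 over the spots. The spots share each array's hybridisation, so this SD covers spot error only. Of these spots, 3 lay in the 4 bands of array rows named above, and the difference was -0.099 without the bands. Rpl39, a very small protein of the exit tunnel, read 3.39 and 3.28, a difference of -0.11, with probes at -0.12 and -0.11. The spot of its probe at -0.12 lay in the bands. Rpl36a differed by -0.034, below the spot SD, and its sign depended on the probe. Rpl10, which joins the 60S subunit late in its assembly, read 5.09 and 5.12, a difference of 0.033. None of the 4 X-linked members was 1.2-fold higher in females, where 5.74% of all counted genes were.

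Repeated probes gave a view of error within genes. Of the core genes, 46 had several probes, 113 in all, and in 23 of them every probe had the same sign, 11 higher in females and 12 higher in males. Probes of the same gene spread by a pooled SD of 0.097, against an SD of 0.063 among the means of these genes. The spread within genes was thus wider than the spread between them. Rpl15 is the other gene spotted 10 times, and over its 9 unflagged spots it read -1.47 in males and -1.48 in females, a difference of -0.0089 with an SD of 0.049.

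Rps2, which lies near the entry of the messenger RNA channel, had 5 probes with differences from -0.34 to 0.12 and a gene value of -0.050. A pair of them is placed 2 bases apart on chromosome 10, and yet they gave -0.34 and 0.022. The probe at rn4 chr10:13977129-13977188 read 4.76 in males and 4.42 in females, and the probe at chr10:13977131-13977190 read 4.79 and 4.81. Of this pair, only the probe at 13977131 had its spot in the 4 bands of array rows named above. Aligned without gaps over 58 bases, their sequences match at 53 and mismatch at 5. The 30 bases that hold the mismatches are given for each, and capitals mark the mismatched bases.
Rps2 probe at 13977129: gctgtgGctaAcacAtaaCggtttCtatac
Rps2 probe at 13977131: gctgtgActaCcacTtaaGggtttTtatac
Which of them matches the RNA of these rats was not tested. Among core genes, pairs of probes that align over 40 or more bases with at least 80% matching were compared. The 4 such pairs without a mismatch had gaps in difference of 0.00070 to 0.023, with a median of 0.017. The 13 such pairs with 1 or more mismatches, from 10 genes, had gaps of 0.012 to 0.36, with a median of 0.045. The sets also differ in place on the array, since no pair without a mismatch had a spot in the 4 bands. Every mismatched pair with a gap of 0.050 or more had a spot there, as did the Rpl36a pair at 0.015. The other mismatched pairs had gaps of 0.012 to 0.045. The parts of mismatch and band in these gaps were not tested.

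Rps27a had a pair with a shorter overlap, in which 21 bases are shared and the differences were -0.018 and -0.24. The probe at rn4 chr14:110559622-110559681 read 4.51 in males and 4.49 in females, and the probe at chr14:110559660-110559719 read 4.77 and 4.53. The latter had its spot in the 4 bands. Capitals mark the shared bases in the 30 given of each probe.
Rps27a probe at 110559622: cTTCAACAAACCAGAAGACAAGtagttgtg
Rps27a probe at 110559660: acttactggTTCAACAAACCAGAAGACAAG
Rpl36a had 3 bright probes between -0.071 and -0.012 and a dim probe that read -6.12 in males and -5.78 in females, a difference of 0.34. Rpl23a, where the signal recognition particle docks at the tunnel exit, read 2.25 and 2.37 with its brighter probe, a difference of 0.12, and 1.52 and 1.35 with the other, a difference of -0.18. In Rps2, Rpl36a and Rpl23a the sign of the difference depended on the probe.

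**Figure D3:**
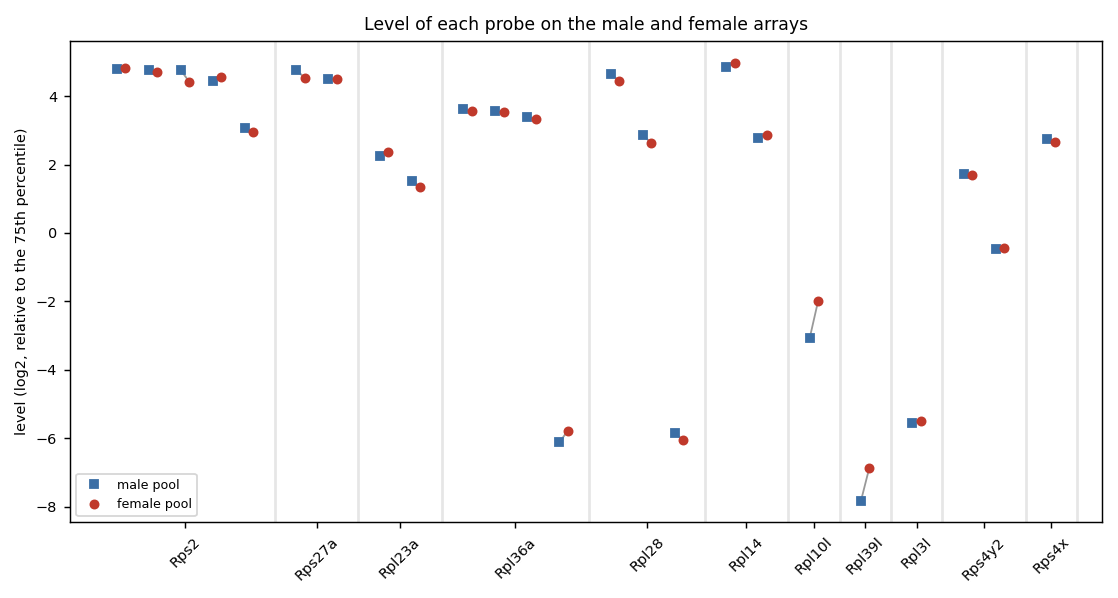
Level (log2, relative to the array's 75th percentile) of each probe on the male array (blue squares) and the female array (red circles) for members whose probes disagree, the leading core genes Rpl28 and Rpl14, 4 paralogues, and Rps4x. Lines join the arrays of a probe, vertical lines separate genes, and the probes of Rpl23a move in opposite directions, while the 3 bright probes of Rpl36a nearly coincide between the arrays.

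The paralogues held the only member that was 2-fold or more apart. Rpl10l, a retrogene copy of Rpl10 known from the testis, had a processed signal of 409 in the male pool and 846 in the female pool, a male level of -3.07 and a difference of 1.07, or 2.10-fold. Of all counted genes, 0.109% differed by that size toward the female pool. This value rests on 1 probe with 1 spot, at rn4 chr6:87929885-87929944, and the spot lay in the 4 bands, so no value is left without them. With normexp background correction it was 0.98, just under 2-fold. Rpl39l, the testis-known relative of Rpl39, had a signal of 15.2 in the male pool and 29.1 in the female pool, levels of -7.82 and -6.86 and a difference of 0.96. Its signals lay close to the lowest signal called well above background, 13.1 for males and 9.59 for females, where the spot SD was 0.31, and the difference was 0.30 with normexp. The first 30 bases of the Rpl10l probe and the whole Rpl39l probe, at rn4 chr10:5409629-5409688, are shown because these were the members with the largest differences, with no capitals.
Rpl10l: ggctagaggagttggaagacctgtgaaaag
Rpl39l: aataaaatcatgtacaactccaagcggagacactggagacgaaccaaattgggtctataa

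The other paralogues and like-genes had smaller differences. Rpl3l, known from heart and skeletal muscle, read -5.55 in males and -5.51 in females, a difference of 0.042, near the lower end of the detected range. Rps4y2 is named for the Y chromosome, but the array files place both its probes on rn4 chromosome 4, and it read 0.63 in males and 0.64 in females, so it gives no check of sex. Rpl22l1, a paralogue of Rpl22, read 1.27 and 1.30, a difference of 0.026. Rpl7l1 read 0.32 and 0.30, a difference of -0.023, and Rps27l read 0.72 and 0.65, a difference of -0.070. The like-named Rpl30l1 differed by -0.017. Rps10l1 differed by -0.021, but its probe matches the Rps10 probe at 50 of 51 aligned bases, which itself differed by -0.042, so the value is uncertain as one of Rps10l1. The 9 paralogues and like-genes thus ranged from -0.070 to 1.07, with Rpl10l and Rpl39l apart from the rest.

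**Figure D4:**
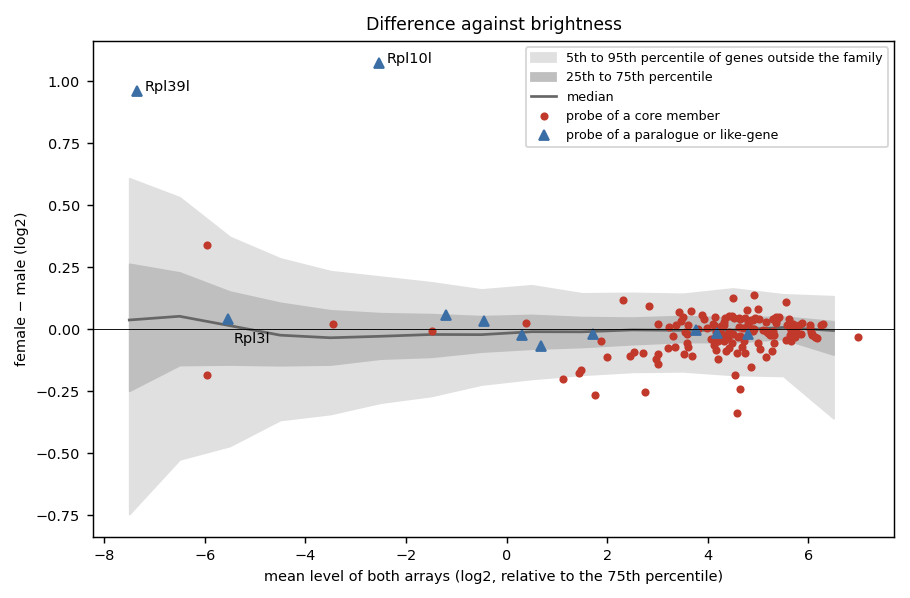
Female minus male difference (log2) of each member probe against its mean level on both arrays (log2, relative to the 75th percentile), with the median, the 25th to 75th and the 5th to 95th percentile of genes outside the family as a line and grey bands. A few members not reported here are left out. Core probes (red circles) cluster at levels above 2 close to 0, and Rpl10l and Rpl39l (blue triangles) lie above the bands.

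Genes outside the name rule that work with the ribosome gave further context. Fau, which makes a ribosomal protein fused to a ubiquitin-like protein, had 3 probes between -0.12 and 0.077 with a median of 0.071, so its sign depended on the probe. Rack1, a scaffold on the small subunit, differed by 0.0017. No elongation factor gene of 10 was 1.2-fold or more apart, with a median of -0.025. Eef2, which moves the ribosome along the messenger RNA, read 4.06 in males and 3.85 in females (-0.21), and Eef1a2, the neuronal and muscle form of the factor that delivers transfer RNA, read 4.25 and 4.43 (0.19). Of 33 initiation factor genes 1 was 1.2-fold or more higher in the male pool, Eif3e at -0.27, and the median was -0.038. Of 39 genes of ribosome assembly and ribosomal RNA synthesis 2 were, Rrs1 at -0.51 and Dkc1 at -0.28, with a median of -0.038. Of 14 genes that control the translation of ribosomal protein messenger RNAs, Tsc1, an inhibitor upstream of mTOR, passed 1.2-fold toward the female pool at 0.30, a dim probe at -5.34 and -5.04, and the median was -0.028. Of 8 genes of ribosome rescue none was 1.2-fold apart, and the largest difference was 0.23 in the ubiquitin ligase gene Ltn1. Over all counted genes, 7.74% passed 1.2-fold toward the male pool and 5.74% toward the female pool. Counts of 1 or 2 genes in lists of 14 to 39 thus do not stand out from these shares. Another 207 probes that carry ribosomal protein-like descriptions outside the rule had a median of -0.026 and an SD of 0.17, with 6 at 1.2-fold or more toward the female pool, 12 toward the male pool and 0 at 2-fold or more.

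Among 42877 rat spots, 85.5% passed the background call in the male pool and 87.9% in the female pool, with 0 saturated. Some neuron markers planned for the list were not measured. The 8 measured ones, which the filter requires to be well above background on both arrays, had mean levels from -0.76 to 3.94. Their median difference was -0.023, with 5 of 8 higher in males, and the largest difference was 0.24 in Snap25, at 2.50 in males and 2.74 in females. Lists for several other cells differed more than the core ribosomal protein list: 9 of 9 meninges and fibroblast markers were higher in the male pool (median -0.37), as were 5 of 5 measured red blood cell markers (-0.55), 7 of 7 measured white blood cell markers (-0.65) and 7 of 8 choroid plexus markers (-0.22). Of astrocyte markers 6 of 8 were higher in males (-0.072), and of microglia and macrophage markers 6 of 8 (-0.13). The 5 measured cerebellar markers went both ways, from -0.48 for Zic1 to 0.35 for Fat2. In the female pool 6 of 8 oligodendrocyte markers (0.19) and 7 of 7 endothelial markers (0.18) were higher. By sign, 45.7% of all counted genes were higher in the female pool. Counts of 5 or 6 of 8 do not stand out from an uneven split of that size. The part of these cells in the ribosomal protein values was not tested. Spike-in probes gave another scale between the arrays, on which every gene moved toward the female pool by 0.67 and all 77 core genes were 1.2-fold or more higher there, so the near equality holds relative to the other genes of each array.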

How the data were processed

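Single-colour Agilent arrays of 1 male and 1 female RNA pool were used. Per the file headers, the deposited intensity values are processed signals, background-subtracted and detrended within each array, from Feature Extraction 10.7.3.1 with rn4 positions, whereas the submitters' processing notes give version 9.1. The authors also deposited a value table of intensity values, each column the processed signal times 1 factor per array (medians 28.0 male and 27.3 female, linear, not centred, 37504 spots).

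The log2 of the processed signal was taken, minus each array's 75th percentile over 42877 rat spots. Control spots and 430 flagged spots were left out, repeated spots were averaged, probes well above background on both arrays were counted, and a gene is the median of its probes. Gene names are those of the array. For 138 member probes the accession had the same symbol in the GRCr8 reference table, for 4 another (Rpl37 and Rpl39l) and for 13 none. For 6 member probes with zero-padded coordinates positions were not compared. A band is 1 of 20 groups of array rows, and 4 were singled out because spots over 64-fold below the 75th percentile were at least 2-fold brighter in the male pool more than 3 times as often there as in the median band; they hold 20.4% of spots and a spot of 32 member probes.

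With 1 array per sex no test was made. The members, lists, rule and alternatives were chosen with earlier results of these data known. Named are the paralogues, X-linked and P stalk members, members 2-fold apart, the 8 largest core differences each way, members with repeated spots, the 5 whose probes disagree most, up to 3 genes of each other ribosome list and up to 2 markers. Some genes are not reported here. The alternatives were other scalings, quantile normalization, removal of the trend with brightness (loess, span 0.3), normexp (offset 50), the value table, filters on dim probes, flagged spots kept, other rules for several probes, leaving out the 4 bands, and 1.5-fold and 3-fold thresholds. Steps were tested on simulated data. Python 3.11.15, pandas 2.3.3, statsmodels 0.14.6, R 4.3.3 and limma 3.58.1 were used. The number of arrays limits the precision.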

Additional observations from a re-analysis of the deposited data

How the results depend on the processing

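The count of core genes 2-fold or more apart was 0 in all 16 settings tried, the 1.5-fold and 3-fold thresholds among them, but the largest core difference is 1.14-fold, so this count could hardly move and says nothing about stability. The SD of the core differences ranged from 0.058 to 0.072, and the 60S minus 40S median from -0.010 to 0.0040. Scaling by spike-in probes, which adds the same amount to every gene, moved the core median to 0.66, the count 1.2-fold apart to 77 and the count higher in the female pool to 77; in the other 13 settings the core median lay between -0.011 and 0.024. The count 1.2-fold apart was 1 with the brightest probe of a gene and 1 without the 4 bands of array rows. Scaling by the median put 54 core genes higher in the female pool, against 32 to 38 in the remaining 12 settings, so the sign of differences near 0 depends on the scaling. With the brightest probe Rpl27 stood at -0.065 and Rpl23a at 0.12, and the causes were not tested. No paired analysis was possible because each sex has 1 array. Signal over background limits Rpl39l and Rpl3l, whose probes are dim.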
